A study of Mus musculus with 36 samples.

Results

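The myosin binding protein family of the mouse has 5 genes, Mybpc1, Mybpc2, Mybpc3, Mybph and Mybphl, and their transcript levels were examined in the hearts of a mouse model of myotonic dystrophy type 1. The members were found by symbol, and all 5 are among the 55291 gene symbols measured. Mybpc2 leads the family because it was chosen by its higher level in CUG960 –dox than in CUG960 +dox hearts in these libraries, so its differences in any comparison that uses either cohort are given as a description without a test. The other 4 members came with it as relatives and were tested everywhere.

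RNA-Seq was made from left ventricle and atria of mice at 21 weeks of age, with 3 libraries for each of 6 cohorts in each tissue, 36 in all. Every mouse carried the TREDT960I (Hom)/MHCrtTA (Hem) genotype, in which doxycycline (dox) in the chow turns on an RNA with 960 interrupted CUG repeats, and the reverse tetracycline transactivator is under the α-myosin heavy chain promoter, which restricts the repeat RNA to cardiomyocytes. The +dox cohort was fed dox from postnatal day 1 to the end and received no vector, the –dox cohort never received dox, and the +/–dox cohort was moved to normal chow at 9 weeks of age. Mice of the remaining 3 cohorts (MBNL1, MBNL2, MBNL1+MBNL2) were kept on dox chow and were given AAV9-3XFLAG-MBNL1, AAV9-3XMYC-MBNL2 or both vectors into the tail vein at 9 weeks, each vector driven by a heart-specific TNNT2 promoter. The –dox hearts differed from the +dox hearts in the drug as well as in the repeat RNA, as did the +/–dox hearts after 9 weeks. The MBNL cohorts differed from the +dox cohort in the vector as well as in the MBNL protein. They differed from the +/–dox cohort in drug, vector, repeat RNA and MBNL protein. These cannot be told apart here. The study also had a vector-treated control cohort, but none of the 36 libraries comes from it.

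Myosin binding proteins sit on the thick filament of the sarcomere, where members of the C group bind both myosin and actin and set how many myosin heads are free to form cross-bridges. Mybpc3 encodes the cardiac form (cMyBP-C), whose phosphorylation by protein kinase A speeds contraction and relaxation and whose loss causes hypertrophic cardiomyopathy in people. Mybpc1 and Mybpc2 encode the slow and the fast skeletal muscle forms, and Mybph and Mybphl encode shorter relatives, of which the H form is known from skeletal muscle and the H-like form from atria and the conduction system.

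The 5 genes lie on 5 chromosomes of the mm10 assembly. In the GENCODE annotation, Mybpc1 spans chr10:88518279-88605152 on the minus strand, Mybpc2 chr7:44501699-44524656 on the minus strand, Mybpc3 chr2:91118144-91136516 on the plus strand, Mybph chr1:134193448-134201232 on the plus strand and Mybphl chr3:108364911-108380057 on the plus strand. Each is protein coding, with up to 29 exons in Mybpc1, 28 in Mybpc2, 35 in Mybpc3, 11 in Mybph and 9 in Mybphl. The longest protein-coding transcript of Mybpc2 has 3611 bases, against 4163 for Mybpc3 and 1276 for Mybphl.

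The 250 bases before the RefSeq start of the 3 members most abundant in these hearts are shown because their levels followed different patterns across cohorts and chambers. Each is read 5′ to 3′ on the strand of its gene in GRCm38.p6 (Mybpc2 chr7:44524670-44524919, Mybpc3 chr2:91117894-91118143, Mybphl chr3:108364661-108364910). Capitals mark matches on either strand. The motifs searched were the E-box, bound by basic helix-loop-helix factors and spelled CANNTG, the MCAT element of TEAD factors, which reads CATTCC, the GATA site of the cardiac GATA factors, taken here as AGATAA, and a MEF2 site.

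Mybpc2: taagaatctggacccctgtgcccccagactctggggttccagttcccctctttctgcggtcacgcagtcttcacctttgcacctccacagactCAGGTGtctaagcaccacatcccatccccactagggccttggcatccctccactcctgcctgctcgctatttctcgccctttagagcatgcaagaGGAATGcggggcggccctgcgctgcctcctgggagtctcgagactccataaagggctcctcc

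Mybpc3: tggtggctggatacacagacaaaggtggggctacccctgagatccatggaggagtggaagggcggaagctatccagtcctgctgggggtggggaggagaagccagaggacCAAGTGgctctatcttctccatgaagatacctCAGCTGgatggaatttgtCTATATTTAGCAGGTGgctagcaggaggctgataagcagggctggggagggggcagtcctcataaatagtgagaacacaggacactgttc

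Mybphl: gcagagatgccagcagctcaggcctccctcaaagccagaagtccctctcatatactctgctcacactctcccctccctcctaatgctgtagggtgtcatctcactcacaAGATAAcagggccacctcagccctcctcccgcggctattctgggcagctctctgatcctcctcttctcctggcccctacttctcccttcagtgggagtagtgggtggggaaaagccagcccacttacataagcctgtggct

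The Mybpc2 window held an E-box and an MCAT element, the latter on the opposite strand to the gene, 57 to 62 bases before the start. The Mybpc3 window held 3 E-boxes and a MEF2 site next to the last of them, and the Mybphl window held a GATA site and none of the other motifs searched. Spellings of the GATA site other than AGATAA were not searched, so a window without a marked site can still hold one. E-boxes were found in 66.2% of the 32851 windows of this length before RefSeq genes, MCAT elements in 12.6%, GATA sites in 9.99% and MEF2 sites in 2.92%, so a match alone is common for the shorter motifs. CArG boxes, in 1.47% of all windows, and TATAAA boxes, in 12.4%, were searched in the same way, and no CArG box lay in the window of any of the 5 members. These matches are letters in a window, and binding was not measured.

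Library totals ranged from 55031979 to 97091156 expected counts. The ventricular library of MBNL1 replicate 1 stood apart by its 16876 genes above 0, against 20550 to 23993 in the other libraries. The tissue labels fitted the markers, since the summed level of 5 ventricular cardiomyocyte markers was 19918 to 27862 TPM (transcript abundance scaled by transcript length and library depth) in the ventricular and 110 to 887 TPM in the atrial libraries. Library names fell into 2 number series, with replicates 1 and 2 of most cohorts in the lower series (20 libraries) and replicate 3 of each together with all MBNL1+MBNL2 libraries in the higher (16 libraries), so the MBNL1+MBNL2 cohort is separated from its series only by taking the series effect to be the same in every cohort. The study's sample table lists the same mice under both tissues, 3 for each cohort, without the replicate numbers, and gives 2 males and 1 female for each cohort but MBNL1+MBNL2, which had 3 males. A gene was called changed where edgeR's quasi-likelihood test gave a Benjamini-Hochberg adjusted p under 0.05 and a fold of at least 1.5, and 19231 genes were tested, among them all 5 members. Because these are bulk samples, fewer cells of a type and less RNA per cell cannot be told apart.

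The family was dominated by the cardiac form in the ventricle and by 2 members in the atria. In the 18 ventricular libraries, Mybpc3 lay between 1020 and 1880 TPM with a median of 1552 TPM, which was the 51st highest mean of all symbols. Mybpc2 lay between 1.80 and 41.5 TPM (median 16.9), Mybphl between 1.86 and 25.6 TPM (median 7.81), Mybpc1 between 0.0700 and 2.91 TPM (median 0.950), and Mybph at or under 0.11 TPM. Mybpc3 therefore made up a median of 98.1% of the summed TPM of the family in the ventricle.

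In the 18 atrial libraries the order was different, with Mybphl at the top. Mybphl lay between 889 and 1161 TPM (median 994) and Mybpc3 between 615 and 1125 TPM (median 817). Mybphl took a median of 55.4% of the family's summed TPM and Mybpc3 44.5%. Mybpc2 ranged from 1.34 to 13.3 TPM (median 6.30), Mybph from 0.0400 to 0.280 TPM, and Mybpc1 was at or near 0, with 39 counts in MBNL1 replicate 1 and at most 5 counts in every other atrial library.

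**Figure D1:**
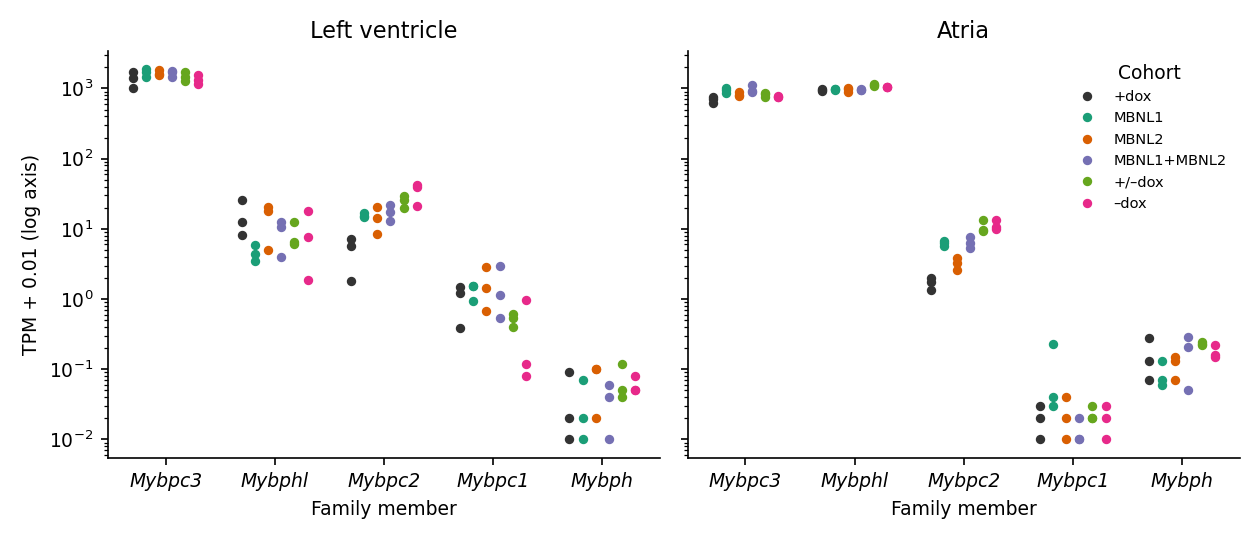
TPM of the 5 family members with 0.01 added (log axis), in left ventricle and atria, 1 point per library, coloured by cohort (n = 3 libraries per cohort and tissue). Mybpc3 is the most abundant member in the ventricle (1020 to 1880 TPM), Mybphl and Mybpc3 share the top in the atria, and the levels of Mybpc2 fan out by cohort in both tissues.

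Mybpc2, the fast skeletal form, was lowest in the +dox hearts of both chambers and highest in the –dox hearts. In the ventricle, the +dox libraries had 7.26, 5.74 and 1.80 TPM (1955, 1632 and 333 counts). The –dox libraries had 20.9, 41.5 and 39.5 TPM (3936, 9038 and 6054 counts). All –dox libraries lay above all +dox libraries, and the spread within each of these cohorts was wide, with replicate 3 low among the +dox libraries and replicate 1 low among the –dox libraries.

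The ventricular libraries of mice taken off dox had 20.0, 25.4 and 29.6 TPM of Mybpc2. Those values lay above every +dox and every MBNL1 library and overlapped the –dox range at its lower end. Ventricles of the MBNL1 cohort had 14.5, 16.6 and 15.2 TPM, those of the MBNL2 cohort 20.7, 14.1 and 8.54 TPM, and those of the MBNL1+MBNL2 cohort 21.7, 17.2 and 13.0 TPM. All 9 MBNL libraries were above the highest +dox library, and the 3 MBNL cohorts overlapped each other.

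As a description, the fitted log2 difference of ventricular Mybpc2 from +dox was 2.78 ± 0.37 (SE) in –dox, a 6.87-fold difference, and 2.30 ± 0.37 in +/–dox. It was 1.57 ± 0.36 in the MBNL1, 1.37 ± 0.36 in the MBNL2 and 1.71 ± 0.36 in the MBNL1+MBNL2 cohort. These 5 differences share the same +dox libraries, and leaving out +dox replicate 3, the lowest of them, brought them to 2.37, 1.90, 1.16, 0.96 and 1.3. The –dox value ranked 81st from the top among the 19231 genes tested, in a comparison in which 7.6% of genes were called, and 6.6% were called in +/–dox, 2.66% in MBNL1, 1.52% in MBNL2 and 2.65% in MBNL1+MBNL2 against +dox. Since Mybpc2 was selected on this contrast, nothing is read from its place in it.

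In the atria, Mybpc2 was lower than in the ventricle in each cohort, and its libraries were closer together. The atrial +dox libraries had 1.99, 1.73 and 1.34 TPM (408, 338 and 188 counts) and the –dox libraries 10.5, 10 and 13.3 TPM (1844, 1711 and 2066 counts). The +/–dox libraries had 9.46, 9.36 and 13.3 TPM. The +/–dox and –dox ranges overlapped almost fully, and both lay above every other atrial library.

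Atria of the MBNL1 cohort had 5.77, 6.29 and 6.75 TPM of Mybpc2 and those of the MBNL1+MBNL2 cohort 6.30, 5.27 and 7.74 TPM. Atria of the MBNL2 cohort had 3.88, 3.24 and 2.55 TPM. The MBNL2 libraries were thus higher than any +dox library and lower than any library of the remaining cohorts. With counts scaled to the effective library size, 11.4% of all tested genes did not overlap between atrial MBNL2 and +dox. The share was 14.8% with MBNL1, 13.9% with MBNL1+MBNL2, 32.9% with +/–dox and 34.3% with –dox. The tests between MBNL cohorts, given below, did not call Mybpc2. The fitted log2 difference from +dox, again a description with shared +dox libraries, was 2.75 ± 0.39 in –dox, 2.7 ± 0.39 in +/–dox, 1.86 ± 0.38 in MBNL1, 0.96 ± 0.38 in MBNL2 and 1.86 ± 0.38 in MBNL1+MBNL2, where 5.23%, 3.99%, 0.13%, 0.0052% and 0.26% of all tested genes were called.

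**Figure D2:**
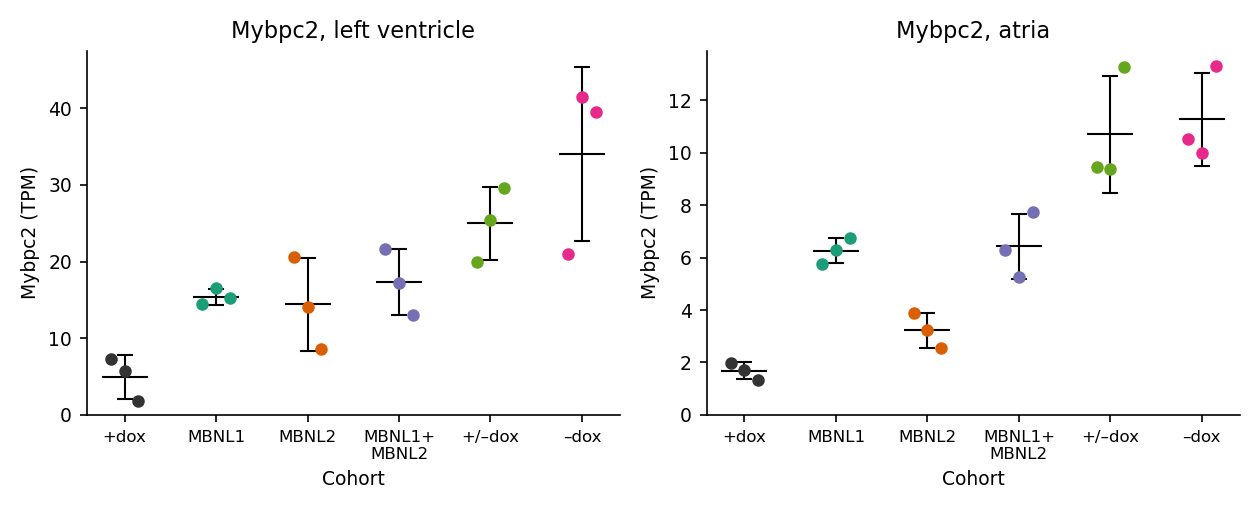
TPM of Mybpc2 in each library (points), with the cohort mean (long bar) and SD (whiskers, n = 3 libraries), in left ventricle and atria, on separate vertical axes. The cohort means run from 4.93 TPM in +dox to 34.0 TPM in –dox in the ventricle and from 1.69 to 11.3 TPM in the atria, with the MBNL cohorts between them.

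Overlap of libraries was counted on normalised CPM (counts scaled to the effective library size). Across the 15 pairs of cohorts, the 3 libraries of Mybpc2 did not overlap in 10 pairs in the ventricle and in 13 pairs in the atria. Over all tested genes, 21.5% of gene and pair combinations in the ventricle and 23.4% in the atria were without overlap. Mybpc3 was without overlap in 1 and 3 pairs, Mybphl in 2 and 7, Mybpc1 in 2 and 4 and Mybph in 0 and 4 pairs of the ventricle and the atria. The ventricular pairs in which Mybpc2 overlapped were +/–dox with –dox, +/–dox with MBNL1+MBNL2 and the 3 pairs of MBNL cohorts, and the atrial pairs were +/–dox with –dox and MBNL1 with MBNL1+MBNL2. On TPM, ventricular MBNL2 libraries (up to 20.7) also overlapped +/–dox (from 20.0), and MBNL1+MBNL2 libraries (up to 21.7) overlapped –dox (from 20.9). The pairs with +dox or –dox carry the choice of Mybpc2 in them.

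How far each treated cohort lay between +dox and –dox was expressed as a position on the linear scale of normalised CPM (counts scaled to the effective library size), with the +dox mean at 0% and the –dox mean at 100%. In the ventricle, Mybpc2 stood at 67.2 ± 13.3% (SD, n = 3) in +/–dox, 33.8 ± 4.91% in MBNL1, 27.0 ± 18.2% in MBNL2 and 38.7 ± 14.1% in MBNL1+MBNL2. In the atria it stood at 95.8 ± 18.4% in +/–dox, 46.0 ± 4.62% in MBNL1, 16.5 ± 8.41% in MBNL2 and 46.0 ± 11.7% in MBNL1+MBNL2. Each SD covers the libraries of the placed cohort only, with the +dox and –dox means held fixed. The –dox libraries themselves ran from 57.4 to 132% in the ventricle (SD 38.4%) and from 90.5 to 113% in the atria (SD 11.6%). The SD of the +dox libraries was 9.99% and 4.38%. These positions rest on the cohorts by which Mybpc2 was chosen and are given without a test.

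The comparisons of the MBNL cohorts with the +/–dox cohort did not use the libraries by which Mybpc2 was chosen, and they were tested. They set MBNL vectors in hearts kept on dox, which still made the repeat RNA, beside stopping dox and that RNA. The cohorts thus differed in drug and vector too, and the parts of these cannot be told apart here. In the atria, Mybpc2 was lower in MBNL2 than in +/–dox by a log2 difference of -1.74 ± 0.37, a 3.34-fold difference (edgeR adjusted p = 0.00288), in a comparison in which 3.24% of genes were called. All 3 MBNL2 libraries were below all 3 +/–dox libraries, and 32.9% of all tested genes were without overlap in this pair. The call held when any of these 6 libraries was left out, with edgeR adjusted p from 0.0071 to 0.0194.

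The atrial differences of the MBNL1 (-0.84 ± 0.36, edgeR adjusted p = 0.215) and MBNL1+MBNL2 cohorts (-0.84 ± 0.36, edgeR adjusted p = 0.18) from +/–dox missed the threshold, where 1.21% and 1.71% of genes were called. Their libraries did not overlap those of +/–dox, which held for 27.1% and 28.5% of all tested genes. A fit to the atrial libraries alone called both differences, at -0.82 in each (edgeR adjusted p = 0.0126 and 0.0103). In the ventricle, the differences from +/–dox were -0.73 ± 0.35 for MBNL1 (edgeR adjusted p = 0.291), -0.94 ± 0.35 for MBNL2 (edgeR adjusted p = 0.135) and -0.60 ± 0.35 for MBNL1+MBNL2 (edgeR adjusted p = 0.464), where 0.868%, 1.57% and 0.53% of genes were called. The 95% intervals ran from -1.42 to -0.04, from -1.63 to -0.25 and from -1.28 to 0.09, so these missed calls do not show equal levels. The –dox and +/–dox cohorts, again a description, differed by 0.48 ± 0.35 in the ventricle and 0.05 ± 0.35 in the atria, where 0.0312% and 0.0104% of genes were called.

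Between the MBNL cohorts, no member was called in either chamber. Ventricular Mybpc2 differed between them by 0.14 to 0.34 on the log2 scale (edgeR adjusted p of at least 0.85). Atrial Mybpc2 was 0.90 ± 0.37 higher in MBNL1 than in MBNL2 (edgeR adjusted p = 0.853) and 0.90 ± 0.37 higher in MBNL1+MBNL2 than in MBNL2 (edgeR adjusted p = 0.884, 95% interval 0.18 to 1.62), and it differed by less than 0.01 between MBNL1+MBNL2 and MBNL1. Few genes of any kind were called here, 0.0% of MBNL1+MBNL2 against MBNL1 in either chamber, 0.026% and 0.0104% of MBNL1+MBNL2 against MBNL2, and 0.0156% and 0.0052% of MBNL1 against MBNL2, in the ventricle and the atria. Of the 30 tests of members between MBNL cohorts, 1 in the ventricle and 3 in the atria had an unadjusted p under 0.05, and DESeq2 called none. For MBNL1+MBNL2 against MBNL1, 1692 ventricular and 454 atrial genes had an unadjusted p under 0.05, and DESeq2 called 7 and 0 genes. With the library series as a term in the fit, edgeR called 37 ventricular and 32 atrial genes for MBNL1+MBNL2 against MBNL1 and 83 and 44 against MBNL2, and none of the members, with Mybpc2 at 0.30 and 0.16 against MBNL1 and at 0.54 and 1.08 against MBNL2.

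Mybpc3, the cardiac form, was not called in any comparison with +dox. Its ventricular libraries had 1736, 1433 and 1020 TPM in +dox and 1177, 1332 and 1556 TPM in –dox. The ranges overlapped, and the fitted log2 difference was -0.03 ± 0.15 (edgeR adjusted p = 0.931, 95% interval -0.33 to 0.28). Across the 5 comparisons with +dox it lay between -0.03 and 0.22 in the ventricle, with edgeR adjusted p of at least 0.401.

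In the atria, Mybpc3 was 754, 702 and 615 TPM in +dox, 773, 748 and 768 TPM in –dox and 748, 854 and 832 TPM in +/–dox. The MBNL1 cohort had 941, 1021 and 870 TPM, the MBNL2 cohort 802, 905 and 793 TPM and the MBNL1+MBNL2 cohort 905, 919 and 1125 TPM, all above the +dox libraries on TPM. On normalised CPM, the MBNL2 and +dox libraries overlapped. The log2 differences of MBNL1 and MBNL1+MBNL2 from +dox were 0.44 ± 0.15 (edgeR adjusted p = 0.346) and 0.45 ± 0.15 (edgeR adjusted p = 0.25), with 95% intervals from 0.13 to 0.74 and from 0.14 to 0.75, and neither passed the threshold. With the library series as a term, the MBNL1+MBNL2 difference was 0.57 ± 0.15 (edgeR adjusted p = 0.0401), under the fold of 1.5. The MBNL1 and MBNL1+MBNL2 differences were, without that term, the 2 atrial member tests against +dox, of 20, with an unadjusted p under 0.05, and DESeq2 called none of the 20.

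**Figure D3:**
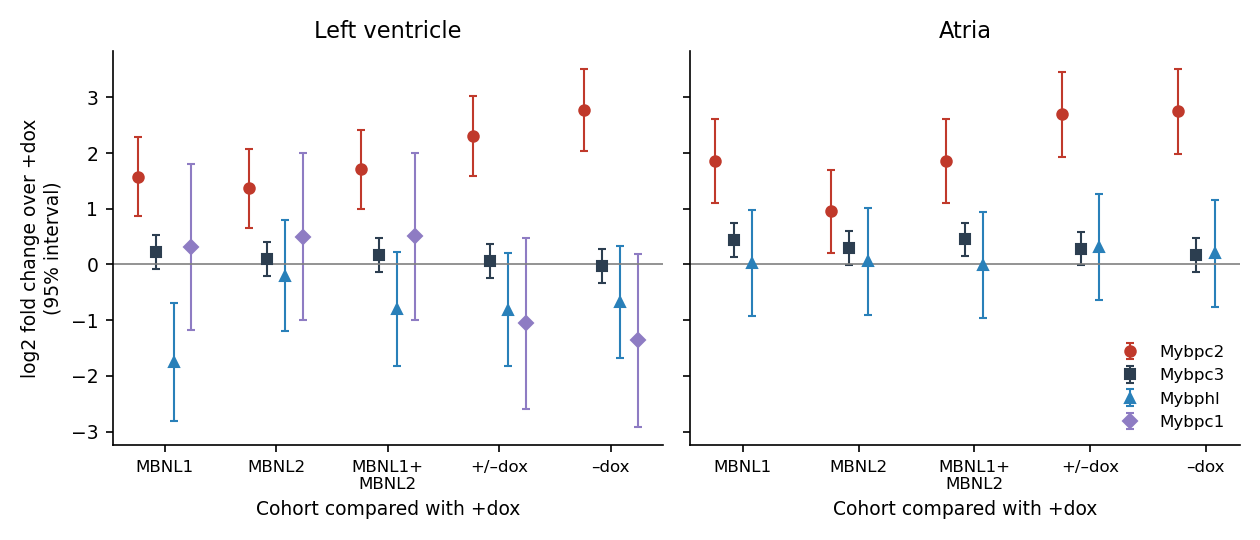
Log2 fold change of each cohort over +dox from the edgeR fit, with 95% intervals, for Mybpc2 (red circles, a description), Mybpc3 (dark squares), Mybphl (blue triangles) and, in the ventricle only, Mybpc1 (purple diamonds). Mybpc2 lies above 0 in all 5 cohorts of both chambers, Mybpc3 lies within -0.03 to 0.45, and the intervals of ventricular Mybphl and Mybpc1 are the widest.

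Mybphl, the H-like form, was the only tested member called against +dox, and that call rested on few libraries. Ventricles of the +dox cohort had 8.03, 12.4 and 25.6 TPM and those of the MBNL1 cohort 3.51, 4.42 and 5.86 TPM. The MBNL1 libraries were below all +dox libraries, and 23.2% of all tested genes were without overlap in this pair. The log2 difference was -1.75 ± 0.54 (edgeR adjusted p = 0.0419), a 3.37-fold difference, and 1 of the 4 members tested was called where 2.66% of all genes were. Without +dox replicate 3, the highest ventricular library, the difference was -1.23 (edgeR adjusted p = 0.207), and the call was also lost without +dox replicate 2 (edgeR adjusted p = 0.0584) and without MBNL1 replicate 1, 2 or 3 (edgeR adjusted p = 0.126, 0.0907 and 0.0637).

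The other ventricular cohorts had Mybphl at 17.7, 5.04 and 20.7 TPM in MBNL2, 3.92, 12.3 and 10.7 TPM in MBNL1+MBNL2, 12.6, 6.07 and 6.57 TPM in +/–dox and 1.86, 17.8 and 7.58 TPM in –dox. Within –dox the libraries spanned nearly the whole ventricular range. The fitted differences from +dox in these 4 cohorts lay between -0.81 and -0.20 (edgeR adjusted p of at least 0.296). Leaving out –dox replicate 2 turned the –dox difference from -0.67 ± 0.52 (edgeR adjusted p = 0.397) into a call at -1.70 (edgeR adjusted p = 0.0297).

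The spread of ventricular Mybphl went together with markers of atrial cardiomyocytes. The summed level of 5 such markers (Myl7, Myl4, Sln, Bmp10 and Nppa) was 92.2 to 1007 TPM in the ventricular libraries and 40261 to 61759 TPM in the atrial ones, and none of the 5 was at 0 throughout. Across the 18 ventricular libraries, Mybphl and that sum correlated on the log2(TPM + 0.1) scale with r = 0.647 (permutation p = 0.00378, adjusted 0.0151 over 4 relations) and Spearman's rho = 0.692 (permutation p = 0.00191, adjusted 0.00764), and r was 0.670 after subtracting cohort means. Without the 2 libraries farthest from the median of the marker sum, –dox replicate 1 and +dox replicate 3, r was 0.937. The latter of these went against the rest, with the highest Mybphl and the 17th of 18 marker sums (124 TPM).

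The MBNL1 ventricles, in which Mybphl was called lower, had marker sums of 138, 251 and 239 TPM, against 469, 471 and 124 TPM in the +dox ventricles. The part of atrial tissue in the Mybphl difference was not tested. The summed level of 6 conduction system markers (Hcn4, Tbx3, Gja5, Cacna2d2, Cntn2 and Scn10a), 7.93 to 32.4 TPM in the ventricle, correlated with Mybphl at r = 0.305 (permutation p = 0.218, adjusted 0.218) and rho = 0.258 (permutation p = 0.299, adjusted 0.299), and r was 0.486 without the 2 libraries farthest from the median.

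**Figure D4:**
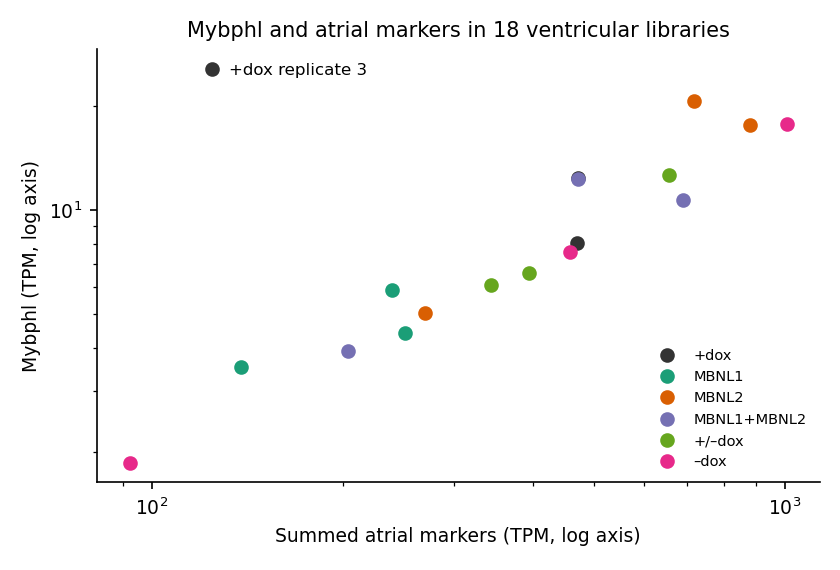
Mybphl against the summed TPM of 5 atrial cardiomyocyte markers in the 18 ventricular libraries (log axes, 1 point per library, coloured by cohort). Mybphl runs from 1.86 to 25.6 TPM and follows the marker sum except in +dox replicate 3, which has the highest Mybphl at 124 TPM of markers.

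In the atria, where Mybphl is abundant, its libraries spanned a 1.45-fold range of CPM. The +dox libraries had 931, 973 and 937 TPM, the –dox libraries 1052, 1064 and 1063 TPM and the +/–dox libraries 1129, 1161 and 1080 TPM. The –dox and +/–dox libraries lay above all +dox libraries on this scale, while the fitted log2 differences were 0.20 ± 0.49 (edgeR adjusted p = 0.835) and 0.31 ± 0.49 (edgeR adjusted p = 0.753) and the MBNL cohorts lay within -0.01 to 0.05 of +dox. The SE of 0.49 comes from a single dispersion per gene over both chambers. Across 9 alternative fits the +/–dox difference was 0.25 to 0.32, and the lowest adjusted p among them was under 0.05. The –dox difference was 0.16 to 0.20, with every adjusted p above 0.05. All these differences were under the fold of 1.5, so none was called. The summed atrial markers were also higher in –dox (54361 to 57755 TPM) than in +dox atria (40261 to 43329 TPM), and their part in the Mybphl levels was not tested.

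Mybpc1, the slow skeletal form, was a low ventricular transcript that varied 41.8-fold in CPM between libraries. Its ventricular libraries had 1.20, 1.47 and 0.380 TPM in +dox, 0.520, 0.390 and 0.610 TPM in +/–dox and 0.0700, 0.960 and 0.11 TPM in –dox. The –dox libraries included both the lowest values of the chamber and a value within the +dox range, and the difference from +dox was -1.36 ± 0.79 (edgeR adjusted p = 0.246). Without –dox replicate 2, the library that also held the most atrial marker RNA, the difference became -3.60 (edgeR adjusted p = 0.00603). The atrial libraries themselves had a median of 0.01 TPM of Mybpc1, against 0.950 TPM in the ventricular ones, and the part of atrial tissue was not tested. With all libraries, limma on log2(TPM + 0.1) called the difference (-1.56, adjusted p = 0.0464).

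The MBNL cohorts had ventricular Mybpc1 at 1.52, 1.53 and 0.940 TPM (MBNL1), 2.87, 1.42 and 0.660 TPM (MBNL2) and 0.520, 1.12 and 2.91 TPM (MBNL1+MBNL2). They overlapped the +dox range, with log2 differences from +dox of 0.31 to 0.51 (edgeR adjusted p of at least 0.756). Against +/–dox their differences were 1.37 to 1.57 (edgeR adjusted p of at least 0.302). Ventricular Mybpc1 and the atrial marker sum correlated at r = 0.418 (permutation p = 0.0833, adjusted 0.167), with r = 0.0936 without the 2 libraries farthest from the median and 0.707 after subtracting cohort means, and rho was 0.379 (permutation p = 0.121, adjusted 0.23). With the conduction markers r was 0.343 (permutation p = 0.165, adjusted 0.218) and rho 0.336 (permutation p = 0.173, adjusted 0.23), and r was 0.399 without the 2 farthest libraries.

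Mybph, the H form, was barely detected. Its counts were 0 to 12.5 per ventricular library and 4.27 to 26.0 per atrial library, and none of its differences from +dox passed the test (edgeR adjusted p of at least 0.635 in the ventricle and 0.712 in the atria). Its ventricular log2 difference of –dox from +dox was 0.49 ± 0.97 with a 95% interval from -1.42 to 2.39, so at this depth a change of several fold either way could go without a call.

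The chambers differed in every member. Over the 6 cohorts, the log2 difference of atria from ventricle was 6.24 ± 0.25 for Mybphl (edgeR adjusted p = 1.6e-17), a 75.7-fold difference, and -1.38 ± 0.06 for Mybpc3 (edgeR adjusted p = 4.9e-18), which was 2.60-fold lower in the atria. Mybpc1 was -6.54 ± 0.49 (edgeR adjusted p = 3.48e-12) and Mybph 1.29 ± 0.37 (edgeR adjusted p = 0.00285). The size of the Mybpc1 difference depends on how the fit treats atrial libraries with 0 to 5 counts. All 4 members tested were called, beside 31.7% of all genes.

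Mybpc2 was tested between the chambers over the 4 cohorts that did not enter its choice. Its log2 difference of atria from ventricle was -2.0 ± 0.18 (edgeR adjusted p = 3.98e-10), all 5 members were called over these cohorts, and 29.9% of all genes were. Over the 6 cohorts it was -2.04 ± 0.15, as a description. Both tissues came from the same mice, and these fits treated the libraries as separate samples. With cohort and replicate number as a block, which pairs the tissues of a mouse only if the numbers follow the mice, all members were still called, Mybpc2 at -1.99 ± 0.13 over 4 cohorts (edgeR adjusted p = 4.49e-09) and Mybph at 1.46 ± 0.41 over 6 (edgeR adjusted p = 0.00362).

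Whether the cohorts acted differently in the 2 chambers was asked by the difference between the atrial and the ventricular effect. For Mybpc2 this lay between -0.41 (MBNL2) and 0.39 (+/–dox) on the log2 scale, as a description, and its sign hung on the +dox libraries, since the –dox value moved from -0.40 to 0.37 as +dox replicate 1 or 3 of the ventricle was left out. For the other 4 members none was called by edgeR in any of the 5 cohorts, where 0.764% (–dox), 0.489% (+/–dox), 0.0312% (MBNL1), 0.0364% (MBNL2) and 0.0728% (MBNL1+MBNL2) of genes were. The member with an unadjusted p under 0.05 was Mybphl in MBNL1, at 1.78 ± 0.72 (edgeR adjusted p = 0.533), 1 of 20 tests, and DESeq2 called none. The block of cohort and replicate number called 299 (–dox), 230 (+/–dox), 21 (MBNL1), 81 (MBNL2) and 59 (MBNL1+MBNL2) genes, and again none of these members, with Mybphl in MBNL1 at 1.66 ± 0.79 (edgeR adjusted p = 0.438).

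The partners of the family on the thick filament and M-line came to 1 call per chamber, against a background over all genes of which 7.6% were called in –dox against +dox ventricles and 5.23% in the atria. Of 21 such genes, all tested, the median log2 difference of –dox from +dox was 0.19 in the ventricle and 0.23 in the atria, beside 0.01 and 0.03 over all tested genes. In the ventricle 0 rose and 1 fell, Myom3, an M-band protein of the myomesin group, at -0.97 ± 0.25 (edgeR adjusted p = 0.00591). In the atria 0 rose and 1 fell, Fhl2, a LIM domain protein of the sarcomere, at -0.97 ± 0.18 (edgeR adjusted p = 0.000282).

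The fast skeletal fibre list, to which Mybpc2 is closest in known tissue, held 17 other genes, of which 15 passed the filter on low counts. In –dox against +dox ventricles 3 rose and 1 fell, with a median of 0.39, beside 7.6% of all genes called. The risers were Clcn1, the chloride channel of skeletal muscle, at 3.73 ± 0.27 (edgeR adjusted p = 2.24e-11), Myl1, an essential myosin light chain, at 1.03 ± 0.22 (edgeR adjusted p = 0.00115), and Atp2a1, the fast fibre calcium pump, at 0.94 ± 0.26 (edgeR adjusted p = 0.0104). Ryr1, the calcium release channel of skeletal muscle, fell by 1.64 on the log2 scale (edgeR adjusted p = 0.0135).

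In the atria 4 of the 15 rose and 0 fell, with a median of 0.34, beside 5.23% of all genes called. These were Tnnt3, the fast troponin T, at 3.39 ± 0.59 (edgeR adjusted p = 0.000137), Clcn1 at 2.55 ± 0.22 (edgeR adjusted p = 1.16e-09), Tnni2, the fast troponin I, at 2.02 ± 0.57 (edgeR adjusted p = 0.0141), and Atp2a1 at 0.86 ± 0.23 (edgeR adjusted p = 0.0101). Against +dox, the list had 1 gene called in each ventricular MBNL comparison, Clcn1 at 1.84 ± 0.29 in MBNL1, 1.77 ± 0.29 in MBNL2 and 1.41 ± 0.30 in MBNL1+MBNL2, where 2.66%, 1.52% and 2.65% of all genes were called. In the atria the counts were 0, 0 and 1, the last being Tnnt3 at 2.41 ± 0.59 in MBNL1+MBNL2, where 0.13%, 0.0052% and 0.26% of all genes were. In +/–dox against +dox, 2 genes of the list were called higher in the ventricle and 3 in the atria, beside 6.6% and 3.99% of all genes called in either direction.

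Markers of skeletal muscle fibres, which also express Mybpc2, were low in every library. The sum of 9 markers (Myh1, Myh2, Myh4, Mylpf, Actn3, Pvalb, Tnnt3, Tnni2 and Tnnc2) was 1.3 to 1.94 TPM in the +dox and 1.71 to 2.25 TPM in the –dox ventricles, where Mybpc2 alone reached 41.5 TPM. In the atria the sum was 1.97 to 2.64 TPM in +dox and 5.80 to 6.36 TPM in –dox, and Tnnt3 (0.207 TPM in +dox and 2.04 TPM in –dox, means) and Tnni2 (0.617 and 2.46 TPM) made up most of the difference. Of the 7 markers that passed the filter, 0 were called in the ventricle and 2, these troponins, in the atria. The fast myosin heavy chains Myh1, Myh2 and Myh4, which define these fibres, were at or under 0.07 TPM in every library, and Tnnc2 was at 0 in the 3 atrial –dox libraries. The part of skeletal fibres in the atrial values of Mybpc2 was not tested.

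Of 8 genes of slow fibres, 0 were called in the ventricle, and in the atria 1 rose, Tnnc1, the slow and cardiac troponin C, at 0.64 ± 0.13 (edgeR adjusted p = 0.000613), and 1 fell, Casq2, the cardiac calsequestrin, at -0.62 ± 0.13 (edgeR adjusted p = 0.00107). Of 19 kinases and phosphatases that act on cMyBP-C, 0 were called in the ventricle. In the atria 2 fell, Camk2b at -0.87 ± 0.16 (edgeR adjusted p = 0.000444) and Prkd1 at -0.67 ± 0.18 (edgeR adjusted p = 0.00742), a calmodulin-dependent kinase subunit and protein kinase D. The shares of all genes called in these comparisons were 7.6% and 5.23% for ventricle and atria, and with so few genes in a list nothing is read from these counts. The medians of the kinase list were -0.09 and -0.19, and those of the slow list -0.25 and -0.04, in the ventricle and the atria.

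The genes whose levels followed Mybpc2 most closely across the 36 libraries, after subtracting each tissue's mean, were Tnip1 (r = 0.951), Pdlim7 (0.929), Coq8a (0.929), Mfsd4b1 (0.926) and Gm12295 (0.921), among 12757 genes with a mean count of at least 100. The libraries share the cohorts in these correlations, and no p is given. Their log2 differences of –dox from +dox were 0.97, 1.37, 2.84, 2.66 and 1.41 in the ventricle and 0.85, 1.42, 2.35, 2.42 and 1.11 in the atria, for the genes in that order. Mybpc2 was chosen by this contrast and these genes by their likeness to it, so nothing is read from the direction of these differences. Within the family, r to Mybpc2 was 0.43 for Mybpc3, -0.22 for Mybphl and -0.07 for Mybpc1.

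Neither neighbour of Mybpc2 on chromosome 7 was called higher. Fam71e1, which ends 212 bases from Mybpc2, was at -0.75 ± 0.38 in –dox against +dox ventricles (edgeR adjusted p = 0.163) and fell in the atria, at -1.17 ± 0.38 (edgeR adjusted p = 0.0313). Spib, 1336 bases away on the other side, was at 1.11 ± 0.93 (edgeR adjusted p = 0.44) and 0.34 ± 0.85 (edgeR adjusted p = 0.834). Gm44646 overlaps 2568 bases of Mybpc2 on the opposite strand and had at most 5 counts in any library.

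Of the other members, Mybph shares 2010 bases with the 3′ part of Adora1 on the opposite strand, which had 1188 to 6707 counts per library, so the few counts of Mybph are uncertain. Mybphl shares 781 bases with Gm12522 (0 to 16 counts in the ventricle, 81 to 239 in the atria) and Mybpc1 2681 bases with Gm48752 (at most 10 counts). The effective transcript length implied by the ratio of count to TPM, which moves when the mix of long and short isoforms changes, stayed within 0.997 to 1.003 of its mean for Mybpc2 and within 0.998 to 1.004 for Mybpc3 in all 36 libraries. It stayed within 0.984 to 1.009 for Mybphl and, in 13 ventricular libraries, within 0.979 to 1.014 for Mybpc1. Mybphl has 1 annotated transcript, and the coding transcripts of Mybpc3 differ little in length, from 4134 to 4163 bases. The ratio therefore cannot report isoform use in Mybphl and could barely move in Mybpc3, so nothing is read from its stability there. For Mybpc2 (464 to 3611 bases) and Mybpc1 (1392 to 3922 bases) it reports only on shifts between isoforms of different length.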

How the data were processed

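RNA-Seq libraries (TruSeq Stranded mRNA, paired-end) were made from 250 ng of RNA. The authors aligned reads with STAR (2.7.10b) to mm10 with GENCODE genes and deposited RSEM (1.3.1) expected counts and TPM per gene symbol, so that reads shared between genes were split by estimate. The strand setting of the counting is not given in the sources used here.

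Expected counts were rounded, and genes were filtered with filterByExpr, scaled by TMM and fitted with edgeR (4.0.16, R 4.3.3) by robust quasi-likelihood, with 1 mean for each of 12 groups over 36 libraries. Genes were called at an adjusted p under 0.05 (Benjamini-Hochberg over 19231 genes) and a fold of at least 1.5. DESeq2 (1.42.0) and limma-trend (3.58.1) on log2(TPM + 0.1) and log2(TPM + 1) were alternatives, beside other filters, scalings, library sets, single-tissue fits, a replicate block and leaving out each library. The fit was tested on simulated data. Correlations used 100000 permutations (scipy 1.17.1), and plots matplotlib (3.10.9). TPM carries no depth of its own, so precision was read from the counts.

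The members and lists were chosen with earlier results of these data known. Named were all 5 members, list genes called in –dox against +dox, the 5 genes closest to Mybpc2 in pattern, and genes next to or overlapping members. The study's sample table lists the same mice under both tissues but gives no replicate numbers, and libraries within a group are from separate mice, so p-values measure the spread between these mice. Same-numbered libraries of the cohorts compared did not deviate together in all 3 pairs of any comparison within a tissue (lowest correlations -0.154 to 0.0845). Between the tissues of a cohort all 3 correlations were over 0.1 in +dox (0.152 to 0.257), –dox (0.123 to 0.243) and MBNL2 (0.11 to 0.19) but not in the other cohorts (lowest 0.0407), so the main fits have no block and the blocked chamber values are given beside them. Positions are from the GENCODE annotation of mm10, and upstream sequences and their starts are from RefSeq (GRCm38.p6), in which all 5 members matched.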

Additional observations from a re-analysis of the deposited data

How the results depend on the processing

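Of the alternatives tried, the fit to each tissue alone called atrial Mybpc2 lower than +/–dox in MBNL1 (-0.82) and in MBNL1+MBNL2 (-0.82), where the full fit did not. On limma with log2(TPM + 1), which shrinks differences at low levels, the atrial differences of Mybpc2 from +dox were 2.19 in –dox, 2.11 in +/–dox, 1.44 in MBNL1 and 1.46 in MBNL1+MBNL2, and the chamber difference of Mybpc2 over 6 cohorts was -1.31 (-1.46 with log2(TPM + 0.1)). In the lower library series alone, atrial Mybpc2 in +/–dox stood 2.38 above +dox. The chamber difference of Mybph fell short of a call with log2(TPM + 1), at 0.14 over 6 and 0.13 over 4 cohorts, and over 4 cohorts without atrial MBNL1+MBNL2 replicate 1, at 1.09 (edgeR adjusted p = 0.0511).

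The Mybphl call in MBNL1 ventricles was also lost in 6 of 9 alternatives other than leaving out a library, and DESeq2 was among those that kept it. It was lost with no filter on low counts (edgeR adjusted p = 0.075), in the lower series alone (-1.38, edgeR adjusted p = 0.322), in the ventricular fit (edgeR adjusted p = 0.21) and on limma (-1.58 and -1.42, adjusted p = 0.0877 and 0.0835). With replicate numbers as a block it was -1.69 (edgeR adjusted p = 0.0542), and the block changed no other call of a member, though it moved the number of called genes by over 1.5 times in 8 of 31 comparisons, 5 of them the chamber differences in effect. DESeq2 did so in 17, the library series as a term in 11 and no fold limit in 22.

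Directions turned in small differences that were not called. In the lower series alone, ventricular differences from +dox were 0.0102 for Mybphl in –dox, -0.21 for Mybpc3 in +/–dox and -0.31 for Mybph in +/–dox, and the chamber difference in the MBNL1 effect on Mybpc1 was -0.14 with log2(TPM + 1). Leaving out 1 library at a time, ventricular Mybpc3 against +dox ranged from -0.24 to 0.16 in –dox, -0.15 to 0.25 in +/–dox, -0.12 to 0.29 in MBNL2 and -0.053 to 0.35 in MBNL1+MBNL2. Ventricular Mybphl ranged from -0.55 to 0.32 in MBNL2 against +dox and from -0.89 to 0.62 in –dox against +/–dox. Ventricular Mybpc1 in MBNL1+MBNL2 ranged from -0.47 to 0.92 against +dox, -0.79 to 0.60 against MBNL1 and -0.97 to 0.65 against MBNL2. Ventricular Mybph ranged from -2.58 to 2.38 in MBNL1 and -0.90 to 2.5 in MBNL1+MBNL2 against +dox, and its chamber differences from -3.38 to 1.58 and -2.41 to 0.99. The causes were not tested. The filter of the single-tissue fits left out Mybph in the ventricle and Mybpc1 in the atria, and the lower series holds no MBNL1+MBNL2 library. Low counts limit Mybph and atrial Mybpc1.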
